A study of Homo sapiens with 8 samples.

Results

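The 38 genes described here make fatty acids, build them into glycerolipids and store or release them as lipid droplets. They were chosen by symbol from a list made with earlier results of these data known. Each matched 1 of the 58884 gene identifiers in the deposited tables, and they were read in all 8 RNA-seq libraries of the study. Each of the 8 groups is a single library, and the groups are 4 human thyroid carcinoma lines under 2 treatments each. 8505C and CAL-62, both from anaplastic carcinomas, were transfected with a control siRNA (labelled WT) or an siRNA against NR1D1 (labelled NR1D1 knockdown). TPC-1, from a papillary carcinoma, and FTC-133, from a follicular carcinoma, were transfected with an empty vector (labelled WT) or a vector overexpressing NR1D1 (labelled NR1D1 overexpression). The siRNA sequence, the promoter of the vector, the time of harvest and whether cells were pooled or cloned are not given in the sources used here. No line received both siRNA and vector, so the approach and the pair of lines cannot be told apart.

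NR1D1 encodes REV-ERB alpha, a repressor of the circadian clock that is also known for its part in hepatic lipid metabolism. Fatty acid synthesis starts with cytosolic acetyl-CoA, which ACLY makes from citrate and ACSS2 from acetate. Acetyl-CoA carboxylases turn it into malonyl-CoA, FASN builds palmitate with NADPH, elongases lengthen the chain and desaturases put in double bonds. Acyl-CoA synthetases activate the products, and GPAM, AGPAT, lipin and DGAT enzymes assemble them into triacylglycerol. SREBF1 encodes SREBP-1, the transcription factor that drives much of this pathway, and INSIG proteins hold SREBPs in the endoplasmic reticulum.

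Levels are in TPM, read numbers divided by gene length and scaled to the same total in every library, so levels of different genes can be set side by side. A log2 ratio is the treated over the control library of a line on log2(TPM + 1), a scale that understates changes of low genes. NR1D1 itself was 18.2 and 11.2 TPM in the control and siRNA libraries of 8505C, 22 and 10.1 in CAL-62, 190 and 209 in TPC-1 with empty and NR1D1 vector, and 105 and 137 in FTC-133. Between 12.86 and 23.18 (in units of 1000000) reads per library were recovered from the values. Genes of the mitochondrial genome took 57.2% of TPM in CAL-62 control and 67.8% after siRNA, beside 15.7% to 29.3% in the other 6 libraries, and the median gene of CAL-62 had a log2 ratio of -0.278. Rescaling the libraries by a trimmed mean moved that median to 0.057, so CAL-62 ratios are read against it. Of 12 thyroid follicular markers 2 to 4 reached 1 TPM in any library. TG, which encodes thyroglobulin, and SLC5A5, the iodide transporter gene, were under 1 TPM in all 8, and PAX8 was 0.503 and 0.501 TPM in 8505C against 53.8 to 330 elsewhere. The follicular marker NKX2-1 had another order, with at least 63.4 TPM in 8505C, at least 14.2 in FTC-133 and 0 in CAL-62 and TPC-1. FOXE1 was at most 0.112 TPM in 8505C and at least 13.2 in TPC-1. HHEX was at least 6.45 TPM in all 8, so these markers did not set 1 line apart in the same way. KRT8 and KRT18, keratins of simple epithelia, were at least 13.9 TPM in all 8. The other epithelial markers, EPCAM, CDH1 and KRT19, were at least 5.68 TPM in CAL-62. Elsewhere EPCAM was at most 1.84 TPM and CDH1 at most 0.478. KRT19 was at most 0.791 TPM there, except for 8.53 in FTC-133 with the NR1D1 vector. The 6 adipocyte markers summed to 0.523 to 8.02 TPM, with ADIPOQ at 0 throughout and FABP4 at 6.27 TPM in 8505C after siRNA and 0 in the other 7 libraries. The 5 blood markers summed to at most 0.54 TPM. Of 5 hepatocyte markers APOB and TTR were listed at 0 throughout, while SERPINA1, which other cells also express, reached 47.3 TPM in TPC-1. The 4 endothelial markers summed to 49.6 TPM in 8505C control and 145 after siRNA, nearly all of it CDH5, and to at most 5.36 in the other 6 libraries. Their part in the 8505C results was not tested.

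In the control libraries the pathway was expressed at higher levels in TPC-1 and FTC-133 than in 8505C and CAL-62. The 38 genes summed to 2184 TPM in 8505C, 1633 in CAL-62, 5749 in TPC-1 and 7263 in FTC-133. Without the mitochondrial genome the sums were 3088, 3817, 6959 and 8788 TPM, so 8505C and CAL-62 changed places while the order of the pairs was the same. For 20 of the 38 both empty-vector libraries lay above both control-siRNA libraries, as did 27.0% of all 17333 genes compared. For 1, HSD17B12, which acts in chain elongation, the order was the reverse, as it was for 14.5% of all genes. Leaving the mitochondrial genome out of the scaling gave 14 of 38 members beside 14.9% of all genes, and the trimmed mean gave 15 beside 20.6%. These levels are a description with no test, because the tables were normalized separately and the control agent differed between the pairs of lines.

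The split was widest for ACLY and FASN early in the pathway and for PLIN2 and G0S2 at the droplet. It was not a trait of whole steps. The mean of the TPC-1 and FTC-133 controls over that of 8505C and CAL-62 was 16.6 for ACLY and 13.3 for FASN. It was 1.4 (PNPLA2) to 4.56 (ACACB) for the other genes of the supply, palmitate and droplet steps. ACSS2 was lower in the TPC-1 control than in that of 8505C. ACLY was 34.5 and 36.9 TPM in the 8505C and CAL-62 controls, which lay close together, and 460 and 722 in TPC-1 and FTC-133. FASN was 40.7, 19.5, 308 and 494 TPM in the same order. G0S2, an inhibitor of the triacylglycerol lipase PNPLA2, was 11.1, 112, 2053 and 1314 TPM, so it was 185 times higher in TPC-1 than in 8505C. The stearoyl-CoA desaturase gene SCD had the highest mean control level of the 38. It was 693, 559, 755 and 2760 TPM, which set FTC-133 apart from the other 3 lines. SREBF1 was 25.5, 13.8, 86.5 and 31.6 TPM, so that the 8505C and FTC-133 controls were near each other and TPC-1 was the highest. Without the mitochondrial genome the CAL-62 control had the second highest SCD level, 1307 TPM, against 979, 913 and 3339 in 8505C, TPC-1 and FTC-133. ACLY was then 48.8, 86.2, 557 and 873 TPM and FASN 57.5, 45.6, 373 and 598, so their split was present on both scales. With the mitochondrial genome included PNPLA2 varied least, with a highest control 1.48 times the lowest. Elongation genes summed to 327, 347, 723 and 596 TPM, but to 463, 811, 875 and 722 without the mitochondrial genome, where CAL-62 lay above FTC-133. Acyl-CoA activation went another way, with 456 TPM in 8505C against 119, 195 and 254 in CAL-62, TPC-1 and FTC-133. ACSL4, which prefers arachidonic acid, was 258 TPM in 8505C and 66.0, 49.8 and 77.2 in the others. It was the most abundant of the step in 8505C and CAL-62, and ACSL3 was in TPC-1 and FTC-133, with 99.6 and 102 TPM.

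**Figure D1:**
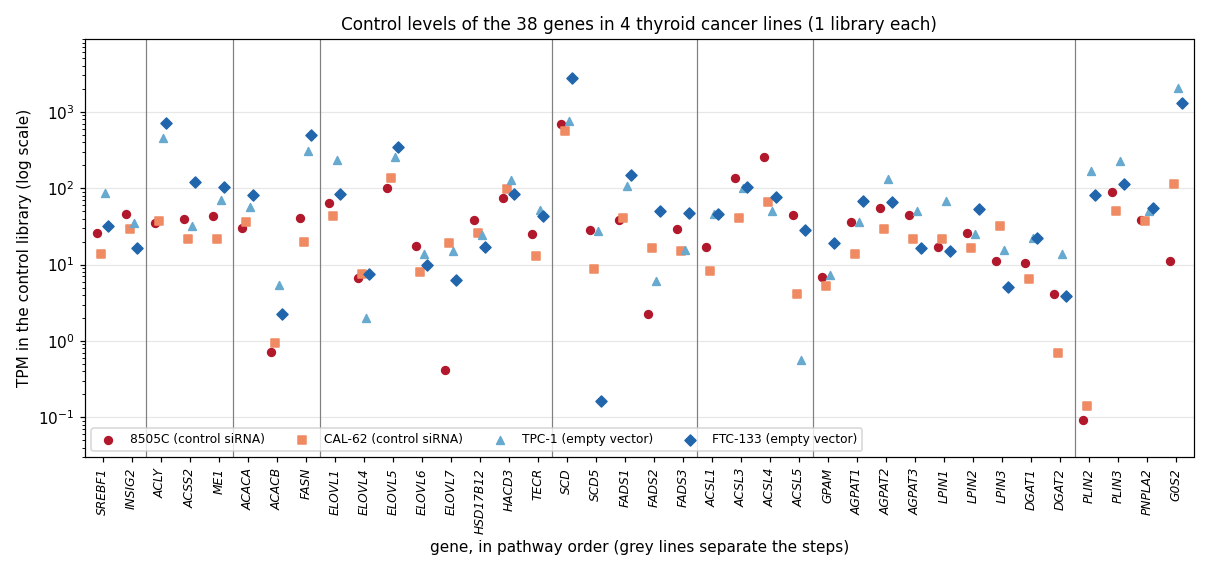
TPM of each of the 38 genes in the control library of each line, on a log axis, with 1 point per line and the genes in pathway order. ACLY, FASN, PLIN2 and G0S2 show the TPC-1 and FTC-133 points well above those of 8505C and CAL-62, while PNPLA2 shows all 4 close together.

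Several members had few or no reads in some lines. PLIN2, which encodes the main droplet coat protein of most cells and was chosen for description once its values were seen, was 0.0925 and 0.0776 TPM in the 8505C libraries and 0.139 and 0.137 in those of CAL-62. These values stand for 2, 2, 5 and 4 reads. In TPC-1 it was 165 and 167 TPM and in FTC-133 81.1 and 63.7. The coat gene PLIN3 had the same order of the pairs of lines but a much smaller difference. It was 89.3 and 50.1 TPM in the 8505C and CAL-62 controls and 226 and 112 in TPC-1 and FTC-133. Of the neighbours of PLIN2 on chromosome 9, HAUS6 was 9.12 to 38.2 TPM and DENND4C 15.1 to 40.7 TPM over the 8 libraries. ADAMTSL1, a secreted matrix protein gene further off, followed the split of PLIN2, with at most 1.10 TPM in 8505C and CAL-62 and 18.1 to 34.1 in TPC-1 and FTC-133. Over all 58884 genes, 3 were at most 0.5 TPM in the 4 libraries of 8505C and CAL-62 and at least 20 in the 4 of TPC-1 and FTC-133, and 1, NUP210, was the reverse. The 2 pairs of lines come from tables in different units, and whether their annotation or counting differed is not given in the sources used here. A difference of that kind and a difference in PLIN2 expression cannot be told apart from these tables. ELOVL7, an elongase of long-chain acyl-CoAs, was 0.415 TPM in 8505C control and 6.32 to 19.3 in the other controls. The desaturase gene SCD5 was 0.164 TPM in FTC-133 control and 8.69 to 28.3 elsewhere. ACSL5 was 0.564 TPM in TPC-1 control and 44.6 in 8505C.

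After NR1D1 siRNA, members were more often higher than lower in both lines, and ACLY, ACSS2, ELOVL4, FADS2 and G0S2 were at least 2-fold higher in both. In 8505C 26 of the 36 members with a mean of at least 1 TPM in its libraries were higher, with a median log2 ratio of 0.617, beside 52.9% of all 16499 genes and a median of 0.048. In CAL-62 23 of 36 were higher with a median of 0.216, beside 32.6% of 16230 genes and a median of -0.278. By the trimmed mean the CAL-62 medians were 0.586 for members and 0.057 for all genes. At least 2-fold higher in 8505C were 10 members (SREBF1, ACLY, ACSS2, FASN, ELOVL4, ELOVL5, TECR, SCD, FADS2 and G0S2), beside 11.9% of all genes. At least 2-fold lower there was 1, ELOVL6, beside 5.86%. In CAL-62 5 members were at least 2-fold higher, beside 5.30% of all genes, and 0 were 2-fold lower, beside 10.7%. Those 5, ACLY, ACSS2, ELOVL4, FADS2 and G0S2, were also among the 10 of 8505C. So 5 of 35 members measured in both lines passed 2-fold upward in both, beside 1.78% of 13742 genes, and 0 did so downward, beside 1.87%. By the trimmed mean 8 of 36 did so, with SREBF1, ELOVL5 and SCD added, beside 3.05% of all genes. Without the mitochondrial genome there were 9, with ACACB as well, beside 4.31%. Because the members were chosen with earlier results of these data known, contrasts of members with all genes are a description.

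No member passed the joint test of the siRNA lines. That test, limma on log2(TPM + 1) with a term for cell line, called 0 of 17595 genes after Benjamini-Hochberg adjustment (0%). At unadjusted p under 0.05 there were 10 members higher, beside 4.50% of all genes, and 1 lower, beside 7.52%. The all-gene split of 791 higher and 1323 lower turned to 1498 and 1155 by the trimmed mean and to 1792 and 1112 without the mitochondrial genome. Adjusted p-values of members ran from 0.246 to 1. With the filter raised from 1 to 5 TPM, 11174 genes were tested and 77 passed, and ACLY was the 1 member among them. The p-values measure the spread between lines, with 2 residual degrees of freedom and each line as 1 observation.

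**Figure D2:**
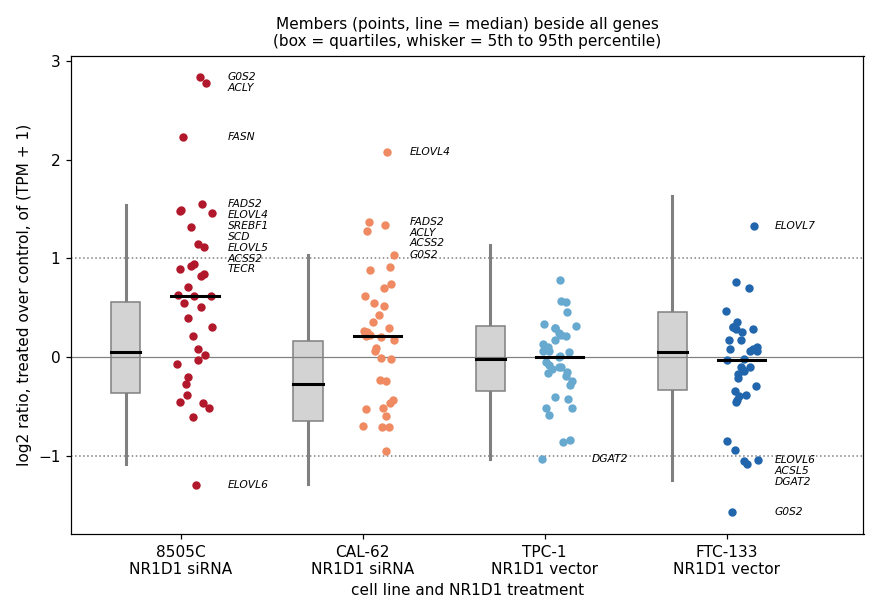
Log2 ratio of each member (coloured points, bar at the median) beside the spread of all genes with a mean of at least 1 TPM in that line (grey box for quartiles, whisker for the 5th to 95th percentile). The member medians are 0.617 in 8505C and 0.216 in CAL-62 against 0.048 and -0.278 for all genes, and in TPC-1 and FTC-133 members and all genes have medians near 0. Names mark members past 2-fold, and dotted lines mark 2-fold.

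Of the 3 supply genes, ACLY and ACSS2 were higher in both siRNA lines and ME1 was lower in both. ACLY was 34.5 and 242 TPM in the control and siRNA libraries of 8505C and 36.9 and 94.9 in those of CAL-62. Those are 7.01-fold (95% counting interval 6.50 to 7.56) and 2.57-fold (2.41 to 2.74). In TPC-1 it was 460 and 479 TPM with empty and NR1D1 vector, and in FTC-133 722 and 622. The siRNA libraries of 8505C and CAL-62 thus stayed below all 4 libraries of TPC-1 and FTC-133. The share of all genes with that order was not counted. The joint siRNA change was 2.06 on the log2 scale (SE 0.388, limma adjusted p = 0.246), and over the settings that kept all lines adjusted p ran from 0.0372, with the filter at 5 TPM, to 1. Intervals of this kind, exact and conditional on the reads, cover counting error only.

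ACSS2 was 39.9 and 89.2 TPM in the control and siRNA libraries of 8505C and 21.6 and 53.8 in CAL-62. With the vector it was 31.8 and 36.0 in TPC-1 and 122 and 149 in FTC-133, so it was higher in all 4 treated libraries. Its siRNA log2 change was 1.21 (SE 0.256, limma adjusted p = 0.253). Whether counting used strand is not given in the sources used here, so it is not known whether reads of overlapping genes were mixed. Shared bases are those of whole gene spans, introns included, and overlap of exons was not checked. The opposite-strand gene GGT7 shares 715 bases with ACSS2 and was 16.4 and 31.1 TPM in 8505C and 23.4 and 30.3 in CAL-62. ME1, the cytosolic malic enzyme that supplies NADPH, was lower after siRNA, with log2 ratios of -0.46 and -0.71, and had 0.33 and -0.46 in TPC-1 and FTC-133. Its CAL-62 ratio was -0.36 by the trimmed mean.

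The regulators did not share a direction. SREBF1 was 25.5 and 72.8 TPM in 8505C, a ratio of 2.85 (2.65 to 3.08), and 13.8 and 26.3 in CAL-62, a ratio of 1.9 (1.74 to 2.08). With the vector it was 86.5 and 71.0 TPM in TPC-1 and 31.6 and 40.5 in FTC-133, opposite in sign between those lines. The siRNA log2 change was 1.18 (SE 0.307, limma adjusted p = 0.286). RAI1, which shares 1055 bases with it on the opposite strand, was 24.0 and 38.4 TPM in 8505C and 15.7 and 15.6 in CAL-62. INSIG2 had log2 ratios of -0.28 in 8505C and -0.24 in CAL-62 after siRNA and -0.84 and -0.30 with the vector, but its CAL-62 ratio was 0.13 by the trimmed mean and 0.16 without the mitochondrial genome.

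FASN stood out in 8505C and less in CAL-62. Its CAL-62 log2 ratio was 0.30, but 0.68 by the trimmed mean and 0.71 without the mitochondrial genome. FASN, on chromosome 17 (GRCh38, 82078333 to 82098332, minus strand), was 40.7 and 194 TPM in 8505C, a ratio of 4.78 (4.53 to 5.04), and 19.5 and 24.2 in CAL-62, a ratio of 1.24 (1.15 to 1.34). It was 308 and 215 TPM in TPC-1 and 494 and 451 in FTC-133. The 8505C siRNA library came near the TPC-1 vector library, and in these values CAL-62 stayed lowest. Without the mitochondrial genome the CAL-62 control was 45.6 TPM and the 8505C control 57.5. The CAL-62 siRNA library then lay above the 8505C control, as it did by the trimmed mean. The joint siRNA change was 1.26 (SE 0.465, limma adjusted p = 0.371). The 2 acetyl-CoA carboxylase genes differed. ACACA, the cytosolic form, had log2 ratios of -0.61 and -0.52 after siRNA, and ACACB, the form at mitochondria, had 0.94 and 0.52. By the trimmed mean the CAL-62 ratios were -0.15 for ACACA and 0.85 for ACACB. ACACA was the more abundant, at 30.2 and 35.7 TPM in the 8505C and CAL-62 controls against 0.719 and 0.95 for ACACB.

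**Figure D3:**
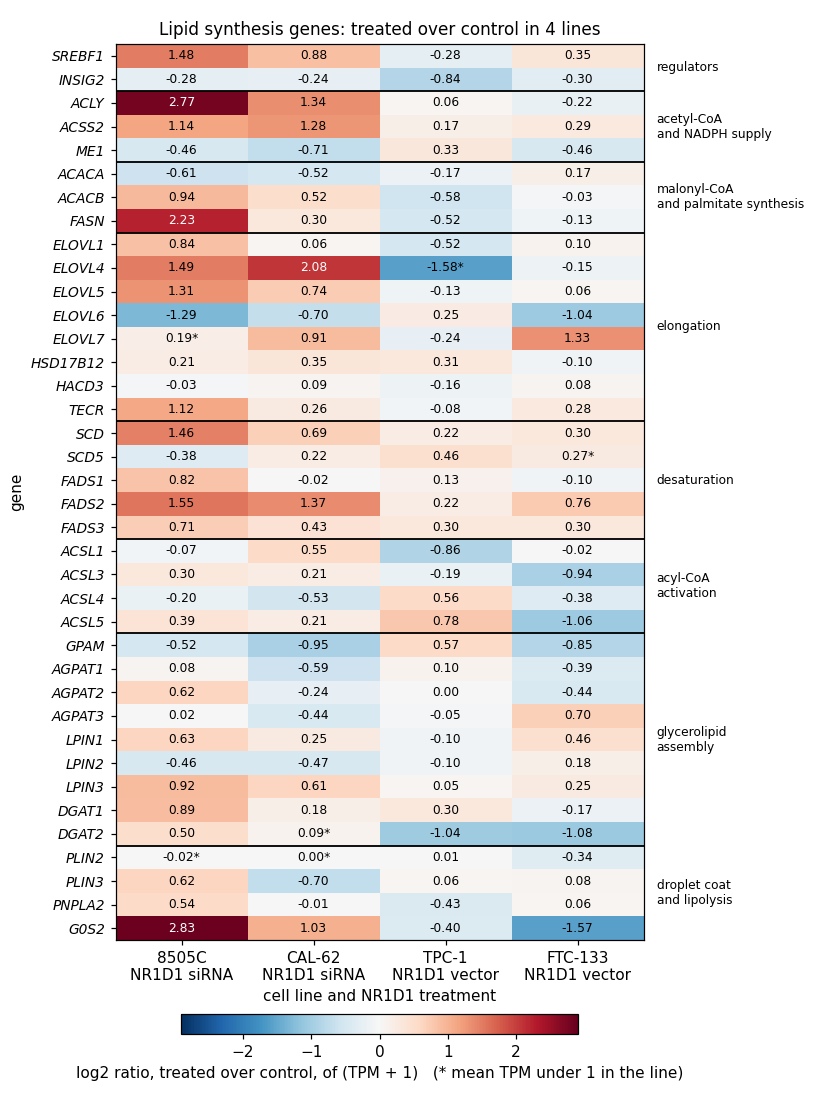
Log2 ratio of (TPM + 1), treated over control, for all 38 genes in the 4 lines, grouped by pathway step, with red for higher and blue for lower and an asterisk where the gene's mean was under 1 TPM in that line. The siRNA columns are red for ACLY, ACSS2, ELOVL4, FADS2 and G0S2 in both lines, and the vector columns show no row with both lines past 2-fold except DGAT2.

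Among the 8 elongation genes ELOVL4 and ELOVL5 were higher in both siRNA lines and ELOVL6 was lower in both. ELOVL4, which makes very long chains, was 6.61 and 20.4 TPM in 8505C and 7.53 and 35.0 in CAL-62. The ratios were 3.08 (2.43 to 3.96) and 4.65 (3.91 to 5.55), on 87 to 623 reads. In FTC-133 it was 7.51 and 6.69 TPM. In TPC-1 its empty-vector library had 1.98 TPM on 35 reads, and its NR1D1-vector library had 0 reads. Taking 3 reads as the limit that a count of 0 allows and the 35 control reads as exact, it was at least 11.8-fold lower there. Counting error of the control is left out of that limit. Of the 12273 genes with as many control reads, 9 were at 0 with the vector. The siRNA change was 1.78 (SE 0.414, limma adjusted p = 0.277).

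ELOVL5, the polyunsaturated chain elongase and the most abundant of the step, was 102 and 254 TPM in 8505C, 134 and 224 in CAL-62, 256 and 235 in TPC-1 and 345 and 360 in FTC-133. Its siRNA change was 1.03 (SE 0.287, limma adjusted p = 0.295). ELOVL6, which takes palmitate to stearate, was 17.3 and 6.48 TPM in 8505C and 8.01 and 4.55 in CAL-62. It was 14 and 16.8 in TPC-1 and 9.91 and 4.30 in FTC-133, so it was lower in 3 of the 4 treated libraries. The siRNA change was -1.0 (SE 0.391, limma adjusted p = 0.399). TECR, the last reductase of each elongation cycle, was 25.3 and 55.9 TPM in 8505C and 12.8 and 15.6 in CAL-62, 52.0 and 49.2 in TPC-1 and 42.8 and 52.3 in FTC-133. The opposite-strand gene DNAJB1 shares 12686 bases with TECR and was 159 and 183 TPM in 8505C. ELOVL7 was 19.3 and 37.1 TPM in CAL-62 and 6.32 and 17.4 in FTC-133, 14.9 and 12.5 in TPC-1, and 0.415 and 0.610 in 8505C on 8 and 14 reads. ELOVL1, HSD17B12 and HACD3 had log2 ratios from -0.52 to 0.84 over the 4 lines.

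Of the 5 desaturase genes SCD, FADS2 and FADS3 were higher in all 4 treated libraries. So were ACSS2 and LPIN3 of other steps, and the share of all genes with this pattern was not counted. SCD, which makes oleate, was 693 and 1907 TPM in 8505C and 559 and 905 in CAL-62, 755 and 879 in TPC-1 and 2760 and 3401 in FTC-133. It made up 44.1% of the summed TPM of the 38 genes in 8505C after siRNA against 31.7% in its control. Its siRNA change was 1.08 (SE 0.331, limma adjusted p = 0.32). FADS2, the delta-6 desaturase, was 2.26 and 8.53 TPM in 8505C and 16.3 and 43.7 in CAL-62, and 6.01 and 7.15 in TPC-1 and 50.7 and 86.2 in FTC-133. Its siRNA change was 1.46 (SE 0.286, limma adjusted p = 0.246). FADS1 and FADS2 overlap by 29694 bases on opposite strands, and FEN1 lies within FADS2 on the same strand. FEN1 was 49.8 and 61.9 TPM in 8505C and 47.5 and 23.3 in CAL-62. FADS1, the delta-5 desaturase, had log2 ratios of 0.82 in 8505C and -0.02 in CAL-62, the latter 0.36 by the trimmed mean. FADS3 had log2 ratios from 0.30 to 0.71, and SCD5 had -0.38 in 8505C and 0.22 in CAL-62.

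Acyl-CoA activation differed little after siRNA in 8505C, with log2 ratios of its 4 genes from -0.20 to 0.39. In CAL-62 they ran from -0.53 to 0.55 with a median of 0.209. By the trimmed mean the CAL-62 median was 0.575, with ACSL1 at 0.93 and ACSL4 at -0.15, beside 0.586 for all members. ACSL4 was 258 and 224 TPM in 8505C, 66.0 and 45.4 in CAL-62, 49.8 and 73.9 in TPC-1 and 77.2 and 59.0 in FTC-133. ACSL5 was 44.6 and 58.8 TPM in 8505C, 4.08 and 4.88 in CAL-62, 0.564 and 1.69 in TPC-1 and 28.1 and 13 in FTC-133. All 4 genes of the step were lower with the vector in FTC-133, beside 7459 of all 16501 genes, while in TPC-1 2 were higher and 2 lower. Of the 4, ACSL1 was near 0 in FTC-133, with a ratio of 0.985 and a counting interval of 0.910 to 1.07.

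Glycerolipid assembly genes were mostly higher in 8505C and mixed in CAL-62. In 8505C 7 of its 9 genes were higher, beside 52.9% of all genes, with a median log2 ratio of 0.503. Of those 7, AGPAT1 and AGPAT3 were near 0, with 0.08 and 0.02, and AGPAT3 had -0.04 by the trimmed mean. In CAL-62 3 of 8 (37.5%) were higher, a share near the 32.6% of all genes, with a median of -0.338. By the trimmed mean 4 of 8 were higher in CAL-62 with a median of 0.032, so the difference between the lines depends in part on the scaling. GPAM, the mitochondrial acyltransferase that starts the pathway, was lower in both, with log2 ratios of -0.52 and -0.95, and in FTC-133 with -0.85. AGPAT2, the most abundant of the step by mean control level, was 55.4 and 85.6 TPM in 8505C, 29.2 and 24.6 in CAL-62, 134 and 133 in TPC-1 and 66.2 and 48.7 in FTC-133. LPIN3, a phosphatidate phosphatase, was 11 and 21.7 TPM in 8505C and 32.0 and 49.5 in CAL-62, 15.5 and 16.1 in TPC-1 and 5.06 and 6.22 in FTC-133. Its siRNA change was 0.77 (SE 0.273, limma adjusted p = 0.359). The other lipins, LPIN1 and LPIN2, had 0.63 and 0.25, and -0.46 and -0.47. By the trimmed mean their CAL-62 ratios were 0.63 and -0.11.

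At the droplet G0S2 showed the largest ratio of the 38 in 8505C. It was 11.1 and 85.2 TPM there, 7.67-fold (5.57 to 10.8) on 42 and 380 reads, and 112 and 231 in CAL-62, 2.05-fold (1.87 to 2.26). With the vector it was 2053 and 1552 TPM in TPC-1 and 1314 and 441 in FTC-133, a ratio of 0.336 (0.317 to 0.355). In these values the libraries of 8505C and CAL-62 did not overlap those of TPC-1 and FTC-133, whatever the treatment. Without the mitochondrial genome they did overlap. The CAL-62 control was then 263 TPM with a log2 ratio of 1.45, and the FTC-133 control 1590 TPM with -1.60. The share of all genes that separate in this way was not counted. The siRNA change was 1.93 (SE 0.499, limma adjusted p = 0.286). AL031316.1, an antisense gene, covers all 969 bases of G0S2, and it was 2.43 and 0.408 TPM in 8505C and 43.6 and 10.2 in FTC-133. PNPLA2, the lipase that G0S2 inhibits, had log2 ratios of 0.54 and -0.01 after siRNA (0.37 in CAL-62 by the trimmed mean) and -0.43 and 0.06 with the vector. PLIN3 was higher in 8505C and lower in CAL-62, with 0.62 and -0.70 (-0.33 in CAL-62 by the trimmed mean).

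**Figure D4:**
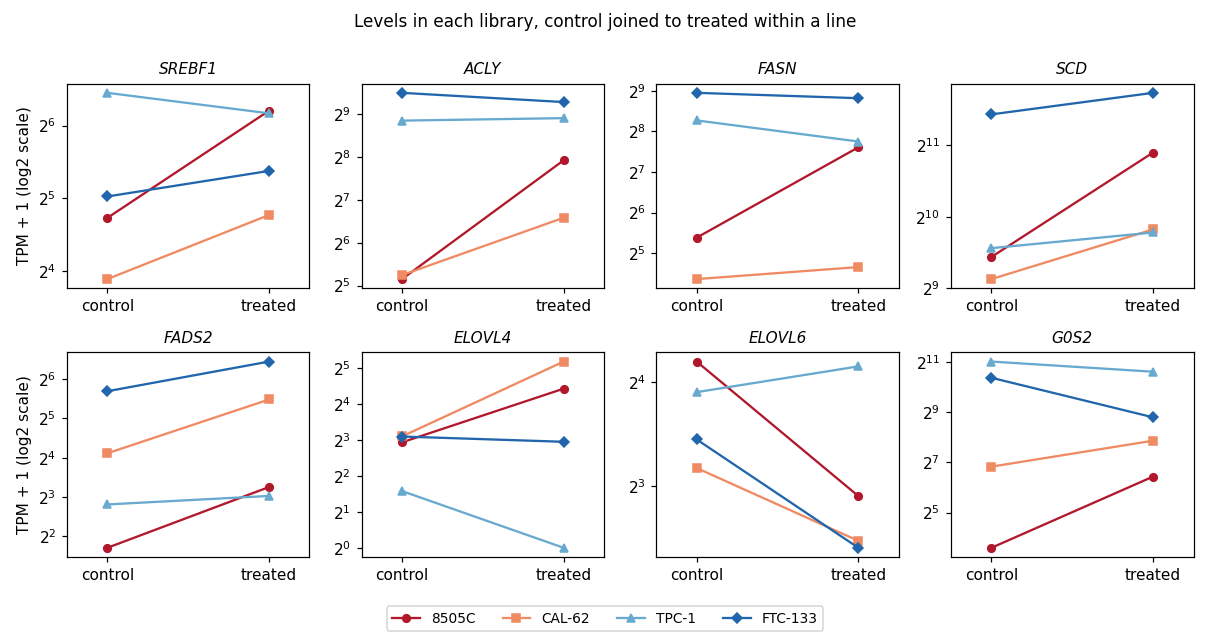
TPM + 1 on a log2 axis in every library for 8 members, with the control joined to the treated library of each line. ACLY, FADS2 and G0S2 slope up in 8505C and CAL-62, G0S2 slopes down in TPC-1 and FTC-133, and SCD slopes up in all 4.

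The sequences before a RefSeq start of the 5 genes that passed 2-fold upward in both siRNA lines are shown because these genes were higher together. Sequences are from RefSeq on GRCh38.p14, which matched 33 of the 38 genes. FASN, HSD17B12, LPIN3, DGAT1 and DGAT2 were not matched. Each run is printed 5′ to 3′ on the gene's strand and lies within 150 bases before the outermost start that the RefSeq table used here holds for the gene, without bases that GENCODE 29 places in an exon. Capitals mark CCAAT or its reverse complement ATTGG, and CACGTG. These lie at chr17:41919023-41919172 (minus strand) for ACLY, chr20:34874839-34874941 (plus) for ACSS2, chr6:79947581-79947703 (minus) for ELOVL4, chr11:61816149-61816202 (plus) for FADS2 and chr1:209675262-209675411 (plus) for G0S2. For 3 of the genes GENCODE 29 begins further upstream, so the starts used lie 11520 bases inside its ACLY gene, 2843 inside ACSS2 and 23223 inside FADS2. The ELOVL4 start lies 27 bases inside, and the G0S2 start 8 bases before its gene.
ACLY: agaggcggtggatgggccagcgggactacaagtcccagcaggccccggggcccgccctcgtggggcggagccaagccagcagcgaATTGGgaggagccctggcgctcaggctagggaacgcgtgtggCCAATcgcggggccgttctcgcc
ACSS2: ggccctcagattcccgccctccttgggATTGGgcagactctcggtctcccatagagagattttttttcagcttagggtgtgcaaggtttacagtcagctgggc
ELOVL4: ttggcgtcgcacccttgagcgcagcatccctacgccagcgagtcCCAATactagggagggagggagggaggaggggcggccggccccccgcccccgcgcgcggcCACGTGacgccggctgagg
FADS2: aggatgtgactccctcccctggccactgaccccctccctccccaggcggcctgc
G0S2: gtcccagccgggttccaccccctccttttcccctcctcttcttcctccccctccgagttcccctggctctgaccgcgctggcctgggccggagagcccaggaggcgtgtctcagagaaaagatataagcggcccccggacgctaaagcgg
The ACLY run holds CCAAT letters that begin 65 and 23 bases before the start, ACSS2 at 123 and ELOVL4 at 106, and ELOVL4 also holds CACGTG at 46. The FADS2 and G0S2 runs hold none of the letters searched. Within 250 bases before any start in that table and on either strand, CCAAT, the box bound by NF-Y, was found for 17 of 33 members, beside 37.0% of 27305 genes. TCACNCCAC, the core of a classic SREBP element, was found for ACSL1 and PNPLA2, 2 of 33, beside 1.09%. AGGTCA, the half-site of many nuclear receptors, was found for 4 (ACACA, ELOVL6, ACSL5 and PNPLA2), beside 14.6%. CACGTG, an E-box, was found for 4 (ELOVL4, ELOVL5, LPIN2 and PLIN2), beside 7.73%. The motifs do not overlap each other in the runs shown, and a match is a description of letters.

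With the NR1D1 vector the members were spread around 0. In TPC-1 18 of 37 members measured were higher and 19 lower, with a median log2 ratio of -0.001, beside 46.8% of 16175 genes higher and a median of -0.020. In FTC-133 17 of 37 were higher and 20 lower, with a median of -0.029, beside 54.8% of 16501 genes and a median of 0.054. In TPC-1 0 members were at least 2-fold higher, beside 6.28% of all genes, and 1, DGAT2, was at least 2-fold lower, beside 5.25%. In FTC-133 1 was 2-fold higher, ELOVL7, beside 9.76%, and 4 were 2-fold lower, ELOVL6, ACSL5, DGAT2 and G0S2, beside 6.91%. Past 2-fold in both vector lines were 0 members upward, beside 0.950% of 13473 genes, and 1 downward, beside 0.579%. The joint vector test with limma called 0 of 17595 genes (0%), and at unadjusted p under 0.05 it had 0 members higher, beside 2.84%, and 1 lower, beside 1.62%.

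That member was DGAT2, an enzyme of the last step of triacylglycerol synthesis. It was 13.9 and 6.27 TPM in TPC-1, a ratio of 0.450 (0.391 to 0.518), and 3.86 and 1.29 in FTC-133, a ratio of 0.335 (0.231 to 0.477) on 132 and 42 reads. Its vector change was -1.06 (SE 0.314, limma adjusted p = 0.892). In 8505C it was 4.13 and 6.27 TPM, and in CAL-62 0.687 and 0.800. DGAT1, which catalyses the same reaction, had log2 ratios of 0.30 in TPC-1 and -0.17 in FTC-133.

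Ordering the libraries by their NR1D1 label rather than by treatment gave few members with 1 direction in all 4 lines. Of 33 members measured in every line 4 were higher after siRNA in both lines and lower with the vector in both, ACACB, FASN, ACSL3 and G0S2, beside 3.58% of 11773 genes. None had the reverse pattern, beside 7.21%. By the trimmed mean the first pattern held for 7, with ELOVL5, DGAT2 and PNPLA2 added, beside 5.82%, and without the mitochondrial genome for 6, with ELOVL4 and DGAT2 added, beside 5.84%. The vector log2 ratios were -0.52 and -0.13 for FASN and -0.58 and -0.03 for ACACB, so FTC-133 was close to 0 for both. The test over 4 lines with limma, NR1D1-higher against NR1D1-lower library, called 0 of 17595 genes (0%). At unadjusted p under 0.05 it had 0 members higher, beside 2.35%, and 4 lower (ACLY, ELOVL4, DGAT2 and G0S2), beside 1.74%. The all-gene split of 413 higher and 307 lower turned to 326 and 495 by the trimmed mean and to 368 and 550 without the mitochondrial genome. G0S2 had -1.46 (SE 0.38, limma adjusted p = 0.938) and ELOVL4 -1.32 (SE 0.331, adjusted p = 0.938).

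Other genes of lipid metabolism, 121 in 6 lists, gave 95 that were tested. In the siRNA comparison 6 (6.32%) were higher and 7 (7.37%) lower at unadjusted p under 0.05, near the 4.50% and 7.52% of all genes, and adjusted p ran from 0.246 to 0.997 (limma). INSIG1, a feedback target of SREBPs, was 28.0 and 69.5 TPM in 8505C, 39.7 and 59.2 in CAL-62, 213 and 229 in TPC-1 and 2048 and 1399 in FTC-133. It is named here after its values were seen, as is PCYT2, which acts in phosphatidylethanolamine synthesis and had siRNA log2 ratios of 1.51 and 0.97. LIPA, the lysosomal acid lipase, was the 1 listed gene past 2-fold upward in both siRNA lines, beside 1.78% of all genes. It was 161 and 405 TPM in 8505C and 28.9 and 71.8 in CAL-62, with 49.5 and 54.0 in TPC-1 and 117 and 131 in FTC-133. Fatty acid oxidation genes had a median log2 ratio of -0.014 in 8505C with 11 of 22 higher, and -0.385 in CAL-62 with 5 of 20 higher, beside medians of 0.048 and -0.278 for all genes. The list of other droplet and lipolysis genes had medians of -0.080 and -0.100.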

How the data were processed

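Gene expression was measured by RNA-seq in 8 libraries, 1 per group. The authors deposited TPM for 8505C and CAL-62. Their deposited columns for TPC-1 and FTC-133 are also named TPM, but value times GENCODE 29 exon length sums as FPKM would, so they were read as FPKM and rescaled to 1000000. The submitters' processing notes name Trimmomatic 0.38, featureCounts 2.0.0 and the build GRCh38. Aligner, annotation release and strand setting are not given in the sources used here. Reads were recovered as value times exon length, and 92.7% to 93.7% of values of 1 to 10 reads came out whole within 0.02, so they served for depth and intervals only. Totals were 12.86 to 23.18 in units of 1000000 reads. P-values measure the spread between lines.

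Tests used limma 3.58.1 (R 4.3.3) on log2(TPM + 1), keeping the 17595 genes that averaged 1 TPM or more, with a term for cell line, a prior spread that followed expression and Benjamini-Hochberg adjustment at 0.05 over all genes. The pairing comes from the shared cell line. Without replicates within a line, 2-fold counts there have no test. Alternatives were a pseudocount of 0.1, other filters, trimmed mean rescaling, scaling without the mitochondrial genome, no line term and leaving out lines. The scripts were tested on simulated data. Members and lists were chosen with earlier results of these data known. Members past 2-fold in a line, past 1.5-fold in both lines of an approach, leading a step, or among SREBF1, ACLY, FASN and SCD were named with values in every library, and others by range and count.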

Additional observations from a re-analysis of the deposited data

Results flagged for a closer look

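Of the 33 members measured in every line, 4 moved 1 way in both siRNA lines and the opposite way in both vector lines. The mean log2 ratio after siRNA minus that with the vector was 2.92 for G0S2, 1.59 for FASN, 1.03 for ACACB and 0.82 for ACSL3. The difference between approaches was not tested for these genes. ACSL3, named here for that pattern, was 136 and 167 TPM in 8505C, 40.9 and 47.2 in CAL-62, 99.6 and 87.3 in TPC-1 and 102 and 52.6 in FTC-133. The vector ratio of ACACB in FTC-133 was 0.971 with a counting interval of 0.761 to 1.24.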

How the results depend on the processing

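Called genes numbered 0 for siRNA, the vector and 4 lines under pseudocount 0.1, no filter, trimmed mean rescaling, scaling without the mitochondrial genome and no line term, and leaving out each line gave 0 to 0. With a mean TPM of at least 5 the siRNA comparison had 77, the vector comparison 7 and the 4-line comparison 0, and fewer genes were tested. Dropping the block for cell line, that is the pairing of libraries within a line, took siRNA genes at unadjusted p under 0.05 to 80 higher and 80 lower and left 0 called.

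Members at least 2-fold higher in CAL-62 went from 5 to 9 by the trimmed mean and 11 without the mitochondrial genome, while all genes went from 5.30% to 11.9% and 15.0%, so the rise is not particular to the members. Those 2-fold lower in CAL-62 went from 0 to 1 with pseudocount 0.1. In TPC-1 members 2-fold higher went from 0 to 1 with pseudocount 0.1, and 2-fold lower from 1 to 2 without a filter, 0 by the trimmed mean and 2 without the mitochondrial genome. Paired-line and 4-line counts with these scalings were added after seeing the data: 8 and 9 members were 2-fold higher in both siRNA lines, and 7 and 6 had the siRNA and vector lines opposed, beside 5 and 4. All genes went from 1.78% to 3.05% and 4.31%, and from 3.58% to 5.82% and 5.84%. In all settings 0 members with a joint change of at least 1.5-fold changed sign. Depth limits PLIN2 in 8505C and CAL-62 (2 to 5 reads), and with 1 library per group no value within a line has a replicate check.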
